A study of Mus musculus with 4 samples.

Results

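Clustered histone genes are the genes of linker histone H1 and of the core histones H2A, H2B, H3 and H4 that lie together in the clusters Hist1, Hist2, Hist3 and Hist4 of the mouse genome. They were chosen by name, as genes whose older symbol begins with Hist1h, Hist2h, Hist3h or Hist4, and the choice by name uses no expression value. The mouse RefSeq table lists 70 of them. A probe of the array could be matched to 48, with 6 genes of H1, 14 of H2A, 11 of H2B, 8 of H3 and 9 of H4. The other 22 had no matched probe and were not analysed here. Of the 48 genes, the scanner software called 47 well above background (detected) on 1 array or more and 44 on all 4 arrays. The same was true of 14381 and 12728 of the 20144 genes named in the whole data set. Only the 47 detected histone genes entered the comparisons, and this step does use the signal. Gene symbols below are the current ones, with the older name given once in parentheses.

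J774.1 is a mouse monocyte-macrophage cell line. Cells of this line were kept for 4 h with MG132, epoxomicin or ONX0914, each at 1 μM, or with the solvent DMSO, and total RNA of each condition was hybridized to 1 single-color array. MG132 and epoxomicin are proteasome inhibitors, and ONX0914 is an inhibitor of the β5 and β5i catalytic subunits. The treatment label of the last array reads ONX-0912, but its title, the treatment protocol and the Methods point to ONX0914, and it was treated as such. The line carried no transgene or deletion in the labels, and nothing says whether the 4 RNAs came from separate days of culture.

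Chromatin is built of nucleosomes, in which DNA wraps around an octamer of H2A, H2B, H3 and H4, and H1 binds the linker DNA between them. The clustered genes supply most of the histone protein that a cell needs while it copies its DNA, so their mRNAs accumulate in S phase and are degraded when replication stops. These mRNAs lack introns and, as a rule, a poly(A) tail, and they end instead in a conserved stem-loop that is bound by the protein Slbp, although several members also make polyadenylated transcripts. The labels name only the manufacturer's standard labeling protocol, so the type of primer was not given in the sources used here, and signal of transcripts with and without a tail cannot be told apart.

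The promoter sequences of 4 members on which the results turn are shown to give the elements that these genes share. H1f5 (Hist1h1b) and H3c8 (Hist1h3g) had lower signal with the inhibitors, whereas H2ac6 (Hist1h2ac) and H2bc22 (Hist1h2bp) differed between epoxomicin and MG132. Each line holds the 250 bases before the annotated transcription start, 5′ to 3′ in the direction of the gene, from RefSeq on build GRCm38.p6. They lie at chr13:21780626-21780875 on the minus strand for H1f5, at chr13:23535168-23535417 on the plus strand for H3c8, at chr13:23683960-23684209 on the minus strand for H2ac6 and at chr13:21787238-21787487 on the plus strand for H2bc22. Capitals mark matches, on either strand, to the TATA box TATAAA, the CCAAT box CCAAT, the octamer ATTTGCAT bound by Oct factors and AAACACA, an element known from H1 promoters.
H1f5: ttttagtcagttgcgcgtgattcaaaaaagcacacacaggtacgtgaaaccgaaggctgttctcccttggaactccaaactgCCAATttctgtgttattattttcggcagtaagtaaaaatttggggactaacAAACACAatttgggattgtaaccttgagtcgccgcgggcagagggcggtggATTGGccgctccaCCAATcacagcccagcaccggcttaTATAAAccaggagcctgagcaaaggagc
H3c8: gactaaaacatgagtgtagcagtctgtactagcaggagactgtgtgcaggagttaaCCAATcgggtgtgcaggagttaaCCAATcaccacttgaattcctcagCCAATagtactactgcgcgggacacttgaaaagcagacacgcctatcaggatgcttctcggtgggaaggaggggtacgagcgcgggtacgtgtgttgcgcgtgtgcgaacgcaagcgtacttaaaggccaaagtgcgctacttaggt
H2ac6: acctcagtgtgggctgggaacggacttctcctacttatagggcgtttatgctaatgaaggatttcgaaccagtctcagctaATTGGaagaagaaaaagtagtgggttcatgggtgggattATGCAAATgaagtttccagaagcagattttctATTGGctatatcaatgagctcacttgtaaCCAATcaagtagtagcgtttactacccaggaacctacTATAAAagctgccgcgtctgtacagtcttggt
H2bc22: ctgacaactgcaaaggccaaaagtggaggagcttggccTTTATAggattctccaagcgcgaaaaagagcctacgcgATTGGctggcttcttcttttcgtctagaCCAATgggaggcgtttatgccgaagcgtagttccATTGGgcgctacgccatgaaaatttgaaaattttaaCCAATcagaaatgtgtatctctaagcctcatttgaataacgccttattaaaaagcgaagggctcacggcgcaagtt

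No marked matches overlap. The H1f5 sequence holds TATAAA near the start, 3 matches to CCAAT and the AAACACA element, and H2ac6 holds TATAAA near the start, 3 matches to CCAAT and the octamer. H3c8 has 3 matches to CCAAT and none to TATAAA. H2bc22 has 4 matches to CCAAT, and its match to TATAAA is on the opposite strand, far from the start.

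Windows of 300 bases, which reach 50 bases past the start, were at hand for 62 clustered histone genes (63 windows), 42 of them measured genes. TATAAA occurred in 35 of the 63 windows (55.6%), against 13.6% of 32851 windows of all mouse genes. CCAAT occurred in 54 windows (85.7%), against 37.4% of all windows. Every window of an H1, H2A, H2B or H3 gene held CCAAT, whereas 3 of 12 windows of H4 genes did. ATTTGCAT occurred in 14 windows, 7 of 18 of H2A and 7 of 17 of H2B genes, against 1.74% of all windows. AAACACA was found in 5 of 6 windows of H1 genes, against 7.18% of all windows. These letters describe the sequence only, and binding of a factor was not measured.

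Expression was taken from the processed signal of each spot, that is, the spot's brightness less the background that the scanner software found. Its log2 was taken and the 75th percentile of the array was subtracted, which gives a scaled level, and a difference is the level on an inhibitor array minus that on the DMSO array. Since each condition had 1 array, no test could be run. The term higher or lower by 2-fold stands for a difference of at least 1 on the log2 scale. Where 3 differences are given without names they are those with MG132, epoxomicin and ONX0914 in that order, and 4 signals begin with DMSO. The median SD between spots of one probe was at most 0.0613 on the log2 scale, and the error that the software gave to a spot was 10.0 to 21.8% of the signal for members well above background on all arrays. Neither value covers the spread between cultures. All 8 macrophage markers that had a probe were well above background on each array, and none of 4 B cell markers was on any. T cell markers were split, with Cd3e and Cd4 detected on all arrays and Cd3g and Cd8a on none. Of 3 epithelial markers, Epcam and Cdh1 were detected on no array and Krt8 on the MG132 and epoxomicin arrays, and their summed signal was 11.9 with DMSO and 47.4 (MG132), 135 (epoxomicin) and 16.0 (ONX0914). Of 3 fibroblast markers, Col1a2 was detected on all arrays, at 61.2 to 85.6, and Col1a1 and Pdgfrb on none, and the hepatocyte gene Alb was on none. Any part of other cell types in the results was not tested. As a check of dim signals, the normexp background model with an offset of 50 replaced the software's subtraction, fitted once without the spots marked as outliers and once on all spots. The fit on all spots left the DMSO array brighter than the rest, with a median of 386 against 153, 163 and 157. Differences of dim probes from DMSO come out lower in that fit. A decrease that stays past 2-fold there is thus no independent check of a dim probe, here and in all paragraphs below.

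Most clustered histone genes differed little from DMSO, and those past 2-fold were more often lower than higher. With MG132, 1 of 46 members compared was at least 2-fold higher and 8 were at least 2-fold lower, while 7.25% of all genes compared were higher and 3.69% lower. With epoxomicin, 3 of 47 members were higher and 7 lower, where 8.49% of all genes were higher and 4.41% lower. With ONX0914, none of 45 members was higher and 3 were lower, where 3.27% of all genes were higher and 1.4% lower. As shares of the members, the genes lower were thus 17.4%, 14.9% and 6.67%. These counts depended on the background model. With normexp without outlier spots, 3, 4 and 1 members were lower, where 2.08%, 2.73% and 0.539% of all genes were, and with normexp on all spots 13, 11 and 9, where 18.6%, 22% and 19.8% were. The median difference of the members was −0.09 (MG132), −0.25 (epoxomicin) and −0.14 (ONX0914), and that of all genes compared was −0.02, −0.04 and −0.01. Below 0 were 30 of 46, 34 of 47 and 36 of 45 members. Of all genes compared, 7203 of 13775, 7386 of 13870 and 7020 of 13791 were below 0. These also stand beside the counts below DMSO given for classes and clusters. Only H3c8 and H2ac21 (Hist2h2ab) were at least 2-fold lower with all 3 inhibitors, among 45 members with all values, where 0.995% of all genes were. No member was at least 2-fold higher with all 3, where 2.02% of all genes were. The 3 comparisons share the DMSO array, and in RNA of a whole culture fewer cells with a transcript and less of it per cell cannot be told apart.

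**Figure D1:**
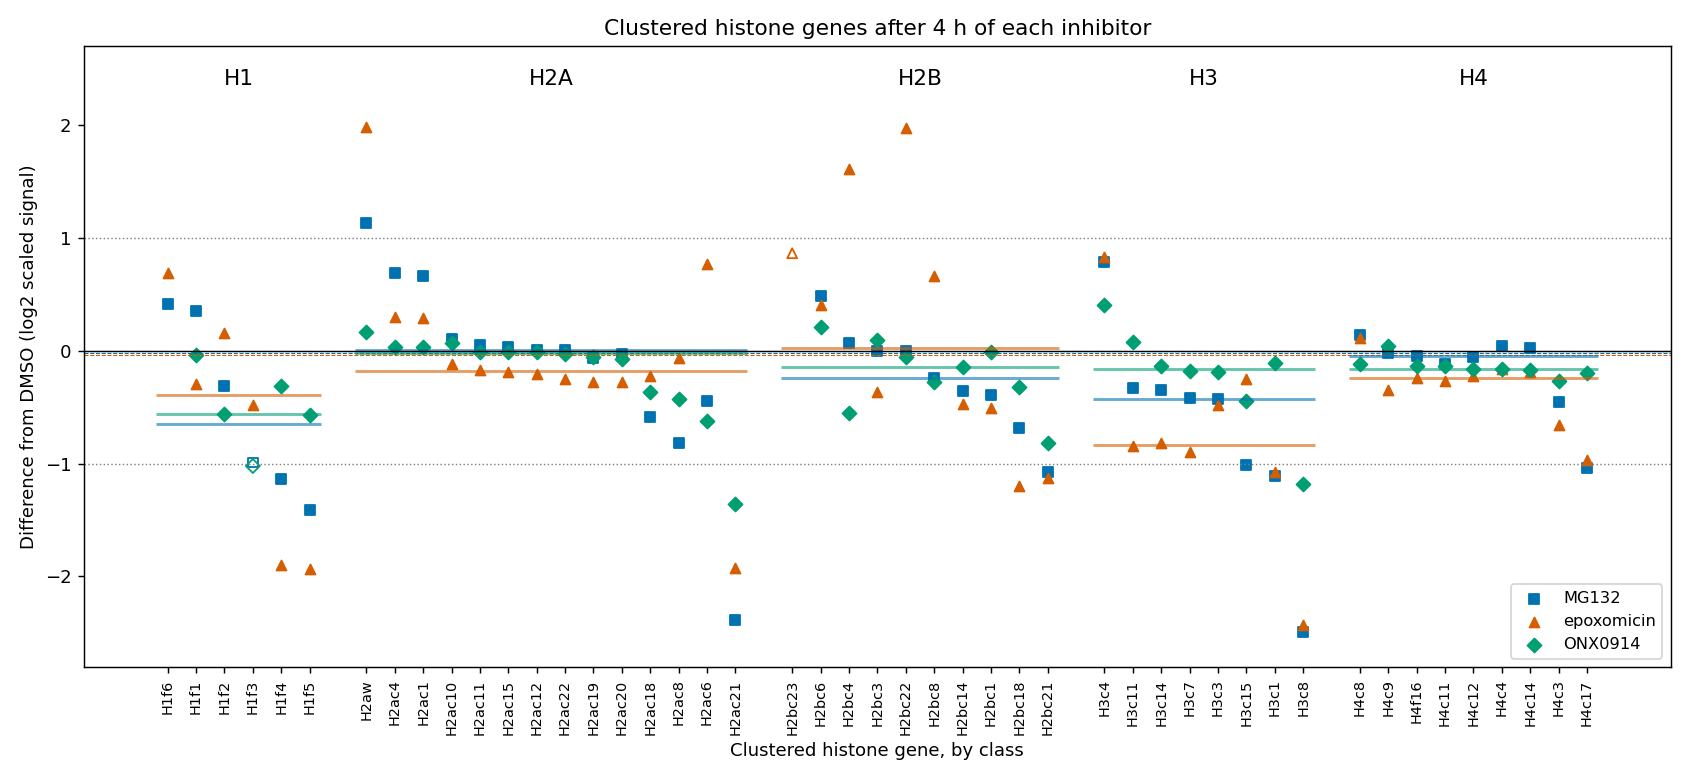
Difference from DMSO in log2 scaled signal (vertical axis) of each of the 47 clustered histone genes detected on at least 1 array, by class (horizontal axis), with MG132 as blue squares, epoxomicin as orange triangles and ONX0914 as green diamonds, 1 array each. Open symbols are bounds, solid bars the class medians, dashed lines the medians of all genes and dotted lines 2-fold, and the lowest points belong to H3c8 at −2.50 and −2.43 and to H2ac21 at −2.39.

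Of the linker histone genes compared, 4 of 6, 4 of 6 and 5 of 5 were below DMSO, and the gene without an ONX0914 value is given below. The median difference of H1 was −0.65 with MG132, −0.39 with epoxomicin (6 genes each) and −0.56 with ONX0914 (5 genes). With MG132 and ONX0914 this was the lowest of the classes as processed here, but with normexp without outlier spots H3 was lower with MG132, at −0.42 against −0.30, and with normexp on all spots H2B was lower with ONX0914, at −0.48 against −0.45. Among the 4 H1 genes above background on all arrays the epoxomicin median was −1.10. Only H1f5 and H1f4 were past 2-fold with a measured signal on every array. H1f5, the gene of linker histone H1.5, had signals of 28441 with DMSO and 9398 (MG132), 7535 (epoxomicin) and 18649 (ONX0914). It was thus 2.66-fold lower with MG132, 3.83-fold lower with epoxomicin and 1.48-fold lower with ONX0914. H1f4 (Hist1h1e), the gene of linker histone H1.4, had signals of 22780, 9085, 6181 and 17805 in the same order. The ONX0914 array lay nearest to DMSO for both genes, and the epoxomicin array was the dimmest. The differences of H1f4 were −1.14 (MG132), −1.90 (epoxomicin) and −0.32 (ONX0914). These calls of H1f4 and H1f5 with MG132 and epoxomicin stayed past 2-fold under each of the 10 other processings tried for single genes. H1f1 (Hist1h1a) and H1f2 (Hist1h1c), the other linker histone genes detected on all arrays, ranged from −0.56 to 0.35 and included no call.

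Near the detection limit, H1f3 (Hist1h1d) was well above background with DMSO (40.3) and epoxomicin (29.2) but not with MG132 (11.9) or ONX0914 (15.6). Only bounds can be given there, at least 1.99-fold lower with MG132 and at least 2.03-fold lower with ONX0914. H1f6 (Hist1h1t), the H1 gene of the testis, had signals between 18.1 and 29.5 on the 3 arrays where it was detected. With ONX0914 its signal of 19.1 was not well above background but lay above the 18.1 with DMSO, so H1f6 was given no difference there. Both were named after their values were seen.

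The H2A genes had a median difference near 0 that hid a single large decrease and a single increase past 2-fold. The class medians over 14 genes were 0.00, −0.18 and −0.02 with MG132, epoxomicin and ONX0914, and the sign with MG132 turned under other scalings, at −0.18 without scaling. With normexp on all spots the ONX0914 median turned to 0.098. The brightest H2A probes differed little from DMSO. The probes of H2ac10 (Hist1h2af), H2ac11 (Hist1h2ag), H2ac12 (Hist1h2ah), H2ac15 (Hist1h2ak), H2ac19 (Hist2h2aa2), H2ac20 (Hist2h2ac) and H2ac22 (Hist1h2an) had signals between 300010 and 420985 on every array. Their differences ran from −0.06 to 0.10 (MG132), from −0.28 to −0.12 (epoxomicin) and from −0.08 to 0.07 (ONX0914). The coding sequences of H2A genes are nearly identical, and how far one probe of this group also reports its neighbors was not tested, since the files hold no probe sequences. H2aj, an H2A gene outside the clusters, had differences of −0.04, −0.27 and −0.01, which lay in the same ranges.

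H2ac21 had the largest decrease of its class. Its signal was 158 with DMSO and 26.5 (MG132), 42.2 (epoxomicin) and 59.8 (ONX0914). It was 5.23-fold lower with MG132, 3.79-fold with epoxomicin and 2.57-fold with ONX0914, all at dim signal. With normexp without outlier spots these differences were −0.93, −0.75 and −0.49, below the 2-fold limit, and with normexp on all spots −1.79, −1.61 and −1.35, past it. The latter fit left the DMSO array brighter than the rest and is no independent check of these decreases. H2aw (Hist3h2a), the H2A gene of the Hist3 cluster, went the other way. Its signals were 352 with DMSO and 677 (MG132), 1410 (epoxomicin) and 384 (ONX0914). The gene was 2.19-fold above DMSO with MG132 and 3.95-fold with epoxomicin, and 1.12-fold with ONX0914. The MG132 and epoxomicin arrays were thus above DMSO past 2-fold, and the ONX0914 array lay next to it. The MG132 value was 0.94 without scaling between arrays and 0.50 with normexp on all spots, under 2-fold in both.

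H2ac4 (Hist1h2ab) had differences of 0.68, 0.30 and 0.03, and H2ac1 (Hist1h2aa), an H2A gene of the testis, 0.66, 0.29 and 0.04. H2ac18 (Hist2h2aa1), which neighbors H2ac19, had −0.59, −0.22 and −0.37, against −0.06, −0.28 and −0.06 for H2ac19. The pair encode the same protein, and their probes thus gave unlike values with MG132. H2ac6 was at 92.9 with DMSO and 60.1 (MG132), 161 (epoxomicin) and 58.7 (ONX0914). Its epoxomicin array was the only one above DMSO, by 0.77, and the others differed by −0.44 and −0.62.

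The H2B genes held members past 2-fold in both directions with epoxomicin. Their values of epoxomicin minus MG132 had an SD over 10 genes of 0.84, against 0.11 to 0.59 in the other classes. This SD includes the dim gene H2bc22, at 1.98, which came to 0.66 with either normexp fit. It also includes a bound of 0.40 for H2bc23 (Hist1h2bq). That gene entered through the epoxomicin array alone, so its value could only be above 0. The class medians were −0.24 with MG132 (9 genes), 0.02 with epoxomicin (10 genes) and −0.14 with ONX0914 (9 genes), and the sign with epoxomicin turned under other scalings and filters, at −0.36 among genes detected on all arrays. H2bc4 (Hist1h2bc) had signals of 2653 with DMSO and 2447 (MG132), 8185 (epoxomicin) and 1762 (ONX0914). It was 3.04-fold higher than DMSO with epoxomicin, where MG132 differed by 0.07 and ONX0914 by −0.55 on the log2 scale. H2bc22 was dim, at 27.9, 24.4, 111 and 26.2 in the same order. Again the epoxomicin array alone stood out, 3.93-fold above DMSO, while the other differences were −0.01 and −0.05. For this gene normexp without outlier spots gave 0.58 with epoxomicin, and normexp on all spots turned the sign to −0.81. H2bc8 (Hist1h2bg), at −0.24, 0.66 and −0.28, had the same order of arrays below the 2-fold limit. H2bc23 was detected on the epoxomicin array alone, with a signal of 27.1, and a bound of at least 1.82-fold higher than DMSO. H2bc22, H2bc8 and H2bc23 were singled out after their values were seen.

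In the opposite direction, H2bc18 (Hist2h2bb) had signals of 11841 with DMSO and 6487 (MG132), 5219 (epoxomicin) and 9236 (ONX0914). It was 2.30-fold lower with epoxomicin, 1.61-fold with MG132 and 1.25-fold with ONX0914, and with normexp on all spots the epoxomicin difference was −0.98, just under 2-fold. H2bc21 (Hist2h2be) had 270, 113, 126 and 149 in that order, and the 3 inhibitor arrays lay close together, all below DMSO. The differences were −1.08, −1.13 and −0.82, and those with MG132 and epoxomicin were −0.57 and −0.67 with normexp without outlier spots but −1.13 and −1.23 with normexp on all spots. The brightest H2B probes beside that of H2bc18 included H2bc14 (Hist1h2bm), with −0.36, −0.47 and −0.14. H2bc1 (Hist1h2ba), an H2B gene of the testis, was at −0.39, −0.51 and −0.02, and H2bc6 (Hist1h2be) at 0.48, 0.40 and 0.21. H2bu2 (Hist3h2ba) of the Hist3 cluster, with signals of 3.68 to 12.9, was not well above background on any array and was the single member with a probe that did not enter.

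Of the H3 genes, 7 of 8 were below DMSO with each of MG132 and epoxomicin. The medians were −0.42 (MG132), −0.83 (epoxomicin) and −0.16 (ONX0914). The epoxomicin median was the lowest of the classes as processed here, but H1 was lower among genes detected on all arrays, at −1.10, and with normexp on all spots, at −1.36 against −0.86 for H3. H3c8 had the lowest difference among all members with MG132 and with epoxomicin, and its signal was 1213 with DMSO and 189 (MG132), 228 (epoxomicin) and 521 (ONX0914). It was 5.64-fold lower with MG132, 5.39-fold lower with epoxomicin and 2.27-fold lower with ONX0914, and each of these calls stayed past 2-fold under the 10 other processings. H3c1 (Hist1h3a) had 765 with DMSO and 312 (MG132), 368 (epoxomicin) and 691 (ONX0914). With MG132 and epoxomicin it was 2.16-fold and 2.11-fold lower, whereas with ONX0914 the difference was −0.11. The first pair was −0.90 and −0.90 with normexp without outlier spots and −1.05 and −1.04 with normexp on all spots.

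H3c15 (Hist2h3c2) was dim, at 66.3, 28.9, 56.4 and 47.3, and its difference of −1.02 with MG132 was −0.45 with normexp without outlier spots and −1.52 with normexp on all spots. H3c14 (Hist2h3c1), its counterpart in the Hist2 cluster, had 7648 with DMSO and 5275 (MG132), 4389 (epoxomicin) and 6755 (ONX0914), with differences of −0.35, −0.82 and −0.14. Genes H3c11 (Hist1h3i), H3c7 (Hist1h3f) and H3c3 (Hist1h3c) ran from −0.43 to −0.33 (MG132), from −0.90 to −0.48 (epoxomicin) and from −0.19 to 0.08 (ONX0914). H3c4 (Hist1h3d), the probe with the highest signal among H3 genes, was the exception to this direction. Its signals were 79190 with DMSO and 120265 (MG132), 142341 (epoxomicin) and 101941 (ONX0914), so all 3 inhibitor arrays were above DMSO. These are increases of 1.73-fold, 1.77-fold and 1.32-fold, below the 2-fold limit.

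The H4 genes, which encode one protein, had the narrowest range of differences among the classes with each inhibitor, as processed here. Their medians over 9 genes were −0.04 (MG132), −0.24 (epoxomicin) and −0.16 (ONX0914), and 8 of 9 were below 0 with each of the latter. H4c17 (Hist1h4m) was the single H4 gene past 2-fold at the probes used. Its signals were 374 with DMSO and 160 (MG132), 193 (epoxomicin) and 317 (ONX0914), a 2.05-fold decrease with MG132 and 1.96-fold with epoxomicin. The MG132 value was −0.70 with normexp without outlier spots and −1.09 with normexp on all spots. H4c12 (Hist1h4k) and H4c14 (Hist2h4), with the brightest H4 probes, were at 102160 and 96999 with DMSO, and their differences lay between −0.22 and 0.03. H4c3 (Hist1h4c) had −0.46, −0.66 and −0.27, and H4c8 (Hist1h4h) 0.14, 0.11 and −0.12. H4f16 (Hist4h4), the one gene of the Hist4 cluster, was at 11615, 9919, 9967 and 10279, with differences of −0.04, −0.24 and −0.14.

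**Figure D2:**
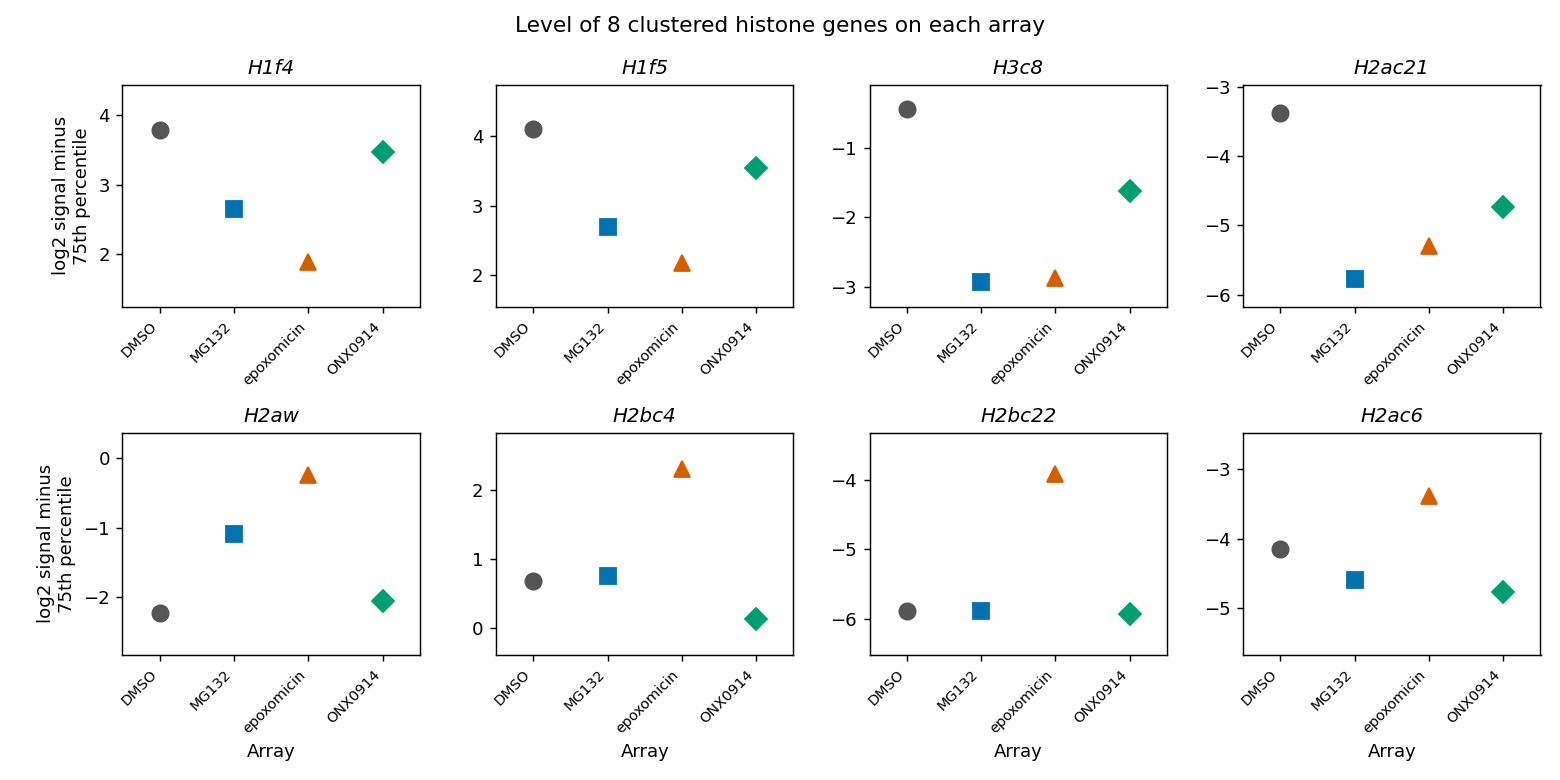
Scaled level (log2 signal minus the 75th percentile of the array, vertical axis) of 8 clustered histone genes on the DMSO, MG132, epoxomicin and ONX0914 arrays (horizontal axis), 1 point per array, in panels of equal span whose heights belong to different probes and cannot be compared. H1f4, H1f5, H3c8 and H2ac21 were highest on the DMSO array, and H2aw, H2bc4, H2bc22 and H2ac6 on the epoxomicin array.

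The 3 inhibitors were given at the same dose and for the same time, and their arrays were set side by side, as 3 pairs and without a test. How far each inhibitor blocked the proteasome is not known from these arrays, so a difference in effective dose cannot be told apart. Between epoxomicin and MG132, the histone genes past 2-fold were all brighter with epoxomicin. At least 2-fold higher with epoxomicin were 3 of 47 members (6.38%), where 0.814% of 13631 genes compared were, and no member was 2-fold lower, where 0.704% were. H2bc22 was 1.98 higher on the log2 scale, H2bc4 was 1.54 higher and H2ac6 was 1.21 higher, and they ranked 16, 35 and 70 among all genes compared. Next came H2bc8 at 0.90 and H2aw at 0.85, with ranks of 138 and 156. All of these are H2A or H2B genes, which made up 14 and 10 of the 47 members compared. The next member was the H3 gene H3c15, at 0.76. At the other end, H1f4 was at −0.76 and H1f1 at −0.65, while the linker gene H1f2 was at 0.47. The median of the members was −0.15 and that of all genes 0.01. With either fit of the background model, H2bc4 alone of the 3 stayed past 2-fold, as H2bc22 came to 0.66 and H2ac6 to 0.64.

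H2ac6 and H2bc4 are neighbors in the Hist1 cluster. H2ac20 and H2bc21 are neighbors in the Hist2 cluster, and their values of epoxomicin minus MG132 were −0.25 and −0.05. Many other H2A and H2B genes of the clusters lie head to head, and 10 such pairs had promoter windows that overlap. In 3 pairs both genes were measured. H2ac8 (Hist1h2ae) and H2bc8 were both higher with epoxomicin than with MG132, by 0.76 and 0.90. H2ac22 and H2bc22 start 240 bases apart but differed, at −0.25 and 1.98. H2bc1 and H2ac1 were at −0.11 and −0.37. Genes with and without the octamer had overlapping values in the H2A class. Among 14 measured H2A genes, the 7 with ATTTGCAT in the window had differences between epoxomicin and MG132 of −0.38 to 1.21, with a median of −0.21, and the 7 without had −0.25 to 0.47, with a median of −0.22. Among measured H2B genes with a window, which leaves out H2bc4, the 6 with ATTTGCAT had −0.52 to 0.90, with a median of −0.11. The 6 include H2bc6, which had a window with ATTTGCAT and a window without it. The 2 genes without ATTTGCAT were H2bc22, at 1.98, and H2bc23, which was not detected with MG132 and has only a bound of at least 0.40. Whether H2B values with and without the octamer overlap can therefore not be told.

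**Figure D3:**
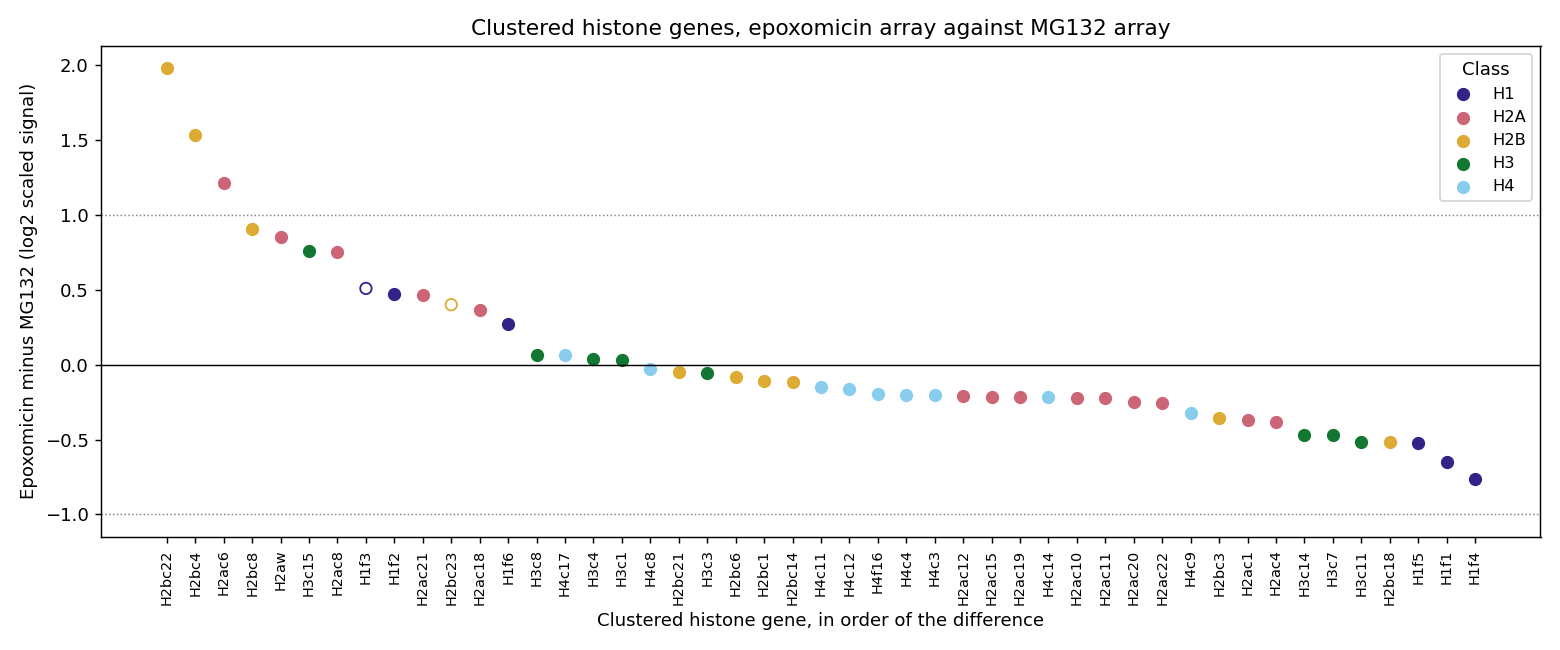
Epoxomicin minus MG132 in log2 scaled signal (vertical axis) of each of 47 clustered histone genes in order of the value (horizontal axis), colored by class, with 1 array per inhibitor. Open circles are bounds and dotted lines mark 2-fold, and H2bc22, H2bc4 and H2ac6 lie above the upper line at 1.98, 1.54 and 1.21.

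ONX0914 was set against each of the others in the same way. Against MG132, 3 of 45 members were at least 2-fold higher with ONX0914, namely H3c8 by 1.31, H2ac21 by 1.03 and H3c1 by 1.00, where 1.08% of all genes were. None was 2-fold lower, where 3.04% of all genes were. Against epoxomicin, 3 of 47 members were higher with ONX0914, where 1.55% of all genes were, and these were H1f4 by 1.59, H1f5 by 1.37 and H3c8 by 1.25. The 4 members lower than with epoxomicin were H2bc4 at −2.16, H2bc22 at −2.03, H2aw at −1.82 and H2ac6 at −1.39, where 4.42% of all genes were lower. With either fit of the background model, none (0) of the members was 2-fold higher with ONX0914 than with MG132, and H3c8 came to 0.80, H2ac21 to 0.44 and H3c1 to 0.81 or 0.82. Against epoxomicin, H1f4, H1f5, H2bc4 and H2aw stayed past 2-fold, and H3c8 came to 0.91, H2bc22 to −0.48 or −0.49 and H2ac6 to −0.64 or −0.65. The class medians of ONX0914 minus epoxomicin were −0.14 for H1, 0.17 for H2A, 0.06 for H2B, 0.70 for H3 and 0.10 for H4.

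Differences were uneven across probe brightness. Of the 12 members whose geometric mean signal over the arrays was above 20000, none reached 2-fold with any inhibitor, where 1.36%, 1.53% and 0.085% of all genes of that brightness were lower and 6.55%, 7.14% and 3.66% higher, and their median differences were 0.03, −0.19 and −0.02. Between 1000 and 20000 lay 14 members, with 2, 3 and 0 of them at least 2-fold lower and 0, 1 and 0 higher, where 3.26%, 3.89% and 0.546% of all genes were lower and 5.45%, 6.46% and 2.25% higher. Under 1000, 6 of 20, 4 of 21 and 3 of 19 members were lower and 1, 2 and 0 were higher, where 4.53%, 5.43% and 2.47% of all genes were lower and 582 of 6374, 691 of 6467 and 268 of 6393 higher. Among all genes too, the share lower was thus largest at dim probes. Of the decreases past 2-fold with MG132 and epoxomicin, those of H1f4, H1f5 and H3c8 stayed past it with either fit of the background model. The part that probe specificity or saturation of binding has in this was not tested, and no member spot was flagged as saturated.

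**Figure D4:**
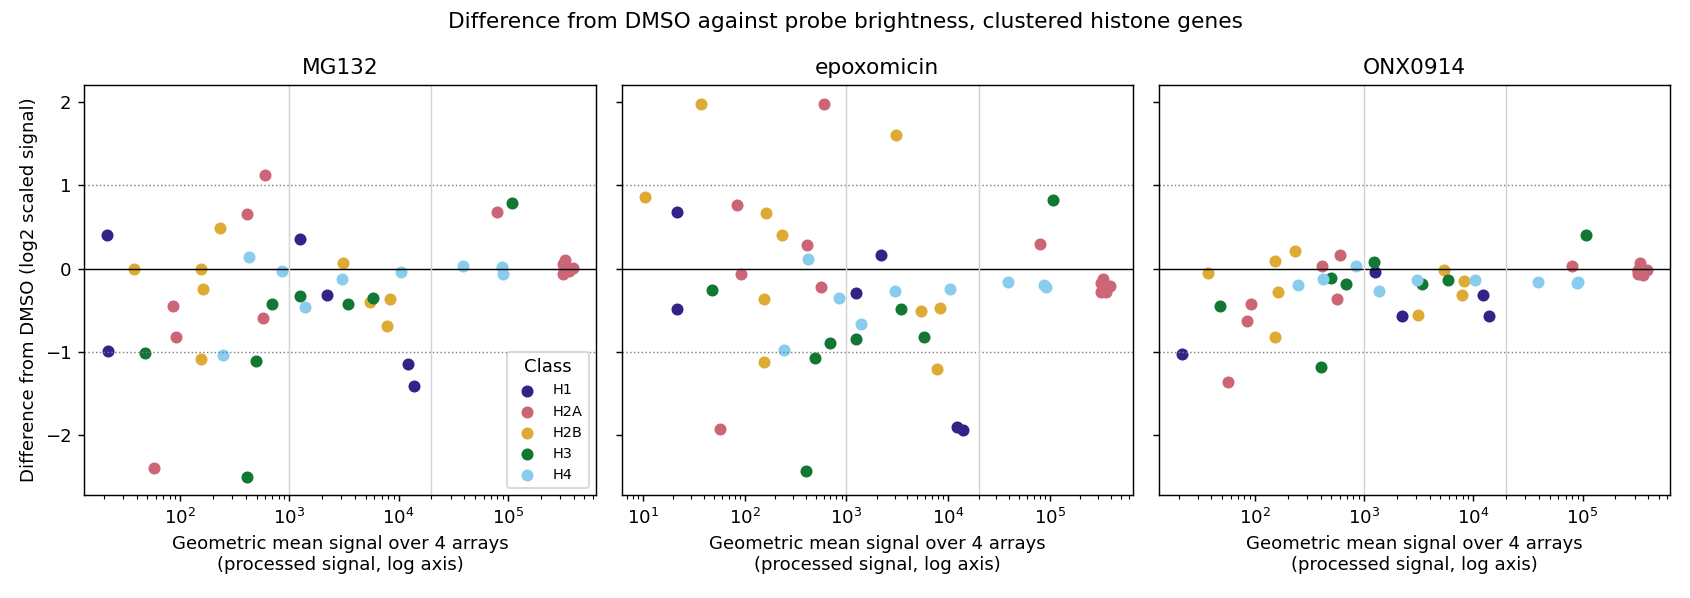
Difference from DMSO in log2 scaled signal (vertical axis) against the geometric mean of the processed signal over the 4 arrays (horizontal axis, log scale), with a panel for each inhibitor and a point for each clustered histone gene, colored by class. Grey vertical lines mark 1000 and 20000 and dotted lines 2-fold, and the 12 points right of 20000 stay within the dotted lines in every panel.

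Of the members, 4 had a second probe, which served as a check within the array. For H2ac15 and H4c12 the second probe also stayed under 2-fold, with differences of −0.08, −0.51 and 0.15 for the former and −0.02, −0.30 and −0.17 for the latter. H4c14 differed by 0.03, −0.19 and −0.17 at the probe used, but its second probe, at a signal of 55.3 with DMSO, gave −1.14, −1.11 and −0.46. H4c9 (Hist1h4i) differed by −0.02, −0.35 and 0.04 at the probe used and by −1.16, −1.36 and −0.53 at the other. The signals of H4c9 were 930, 804, 741 and 929 at the probe used and 960, 378, 380 and 647 at the other, so with DMSO the probe not used was slightly the brighter. The probes of these last H4 genes thus disagreed, and the values above hold for the probe with the higher mean over the 4 arrays, a rule that the inhibitor arrays enter.

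By cluster, the 9 measured genes of Hist2 were all below DMSO with epoxomicin and with ONX0914, and 8 of 9 were with MG132. Their medians were −0.59 (MG132), −0.28 (epoxomicin) and −0.32 (ONX0914), and 3, 3 and 1 of them were at least 2-fold lower, where 3.69%, 4.41% and 1.4% of all genes were. The 3 with MG132 were H2ac21, H2bc21 and H3c15, which were all under 2-fold with normexp without outlier spots. The Hist1 cluster had medians of −0.06 over 35 genes, −0.21 over 36 and −0.13 over 34, with 5, 4 and 2 genes at least 2-fold lower. H2aw was the one measured gene of Hist3.

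Histone genes outside the clusters, most of which are expressed throughout the cell cycle, were measured beside the members, and 11 of 14 with a probe could be compared. With MG132, 3 were at least 2-fold lower and none higher. With epoxomicin, 1 was lower and 1 higher, and with ONX0914, 2 were lower, where 3.69%, 4.41% and 1.4% of all genes were lower and 7.25%, 8.49% and 3.27% higher. Over 11 genes, a count of 1 is near these shares. Their medians of −0.23, −0.27 and −0.10 stood beside −0.09, −0.25 and −0.14 for the members. H1f0, a linker histone of quiescent and differentiated cells, had signals of 647 with DMSO and 176 (MG132), 127 (epoxomicin) and 278 (ONX0914), with differences of −1.70, −2.37 and −1.18. It had the same order of arrays as H1f4 and H1f5. H2ax, whose protein marks DNA breaks when phosphorylated, had −1.46, −0.86 and −1.04, H2az2 had −1.07, −0.97 and −0.47, and the centromeric H3 gene Cenpa −0.81, −0.93 and −0.53. The replacement gene H3f3b was higher, by 0.95, 1.04 and 0.41, while H3f3a, which encodes the same protein H3.3, was at −0.58, −0.45 and −0.15.

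Of 23 genes of histone mRNA synthesis and 3′ end processing, 1 was at least 2-fold higher and 1 lower with MG132, 1 and 2 with epoxomicin and none with ONX0914. Of all genes, 7.25%, 8.49% and 3.27% were higher and 3.69%, 4.41% and 1.4% lower. Mblac1, a nuclease of histone pre-mRNA, had differences of −1.43, −1.92 and −0.89. Sympk, the other gene at least 2-fold lower with epoxomicin, had 0.03, −1.51 and −0.41. Hinfp, an activator of H4 genes, had 1.06, 1.22 and 0.46. Slbp, which binds the stem-loop, was at 2138 with DMSO and 1289 (MG132), 2105 (epoxomicin) and 1482 (ONX0914), so it was lower with MG132 by 0.55 and with ONX0914 by 0.49 but differed by −0.04 with epoxomicin. Npat, the coactivator of clustered histone genes, was not well above background on any array. It was named after its values were seen, as were Sympk and, above, H2aj. Pou2f1, the gene of the octamer factor Oct-1, had −0.44, −0.44 and −0.31.

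Of 23 histone chaperone genes, 1 was past 2-fold with each inhibitor. This was Daxx, the chaperone of H3.3, which was higher by 2.15, 2.24 and 1.62. Asf1b, a chaperone of newly made H3 and H4, was at −0.57, −0.45 and −0.30. Among 32 DNA replication genes compared, 1, 2 and 0 were at least 2-fold higher and 3, 2 and 1 lower, and the medians were −0.18, 0.02 and −0.22. Beside the chaperone and replication lists, 7.25%, 8.49% and 3.27% of all genes were higher and 3.69%, 4.41% and 1.4% lower. Ccne1, the cyclin of S phase entry, had signals of 8647, 1532, 2077 and 3507, with differences of −2.31, −2.08 and −1.26. The S phase genes Tk1 and Rrm2 had −1.11, −1.05 and −0.48 and −1.04, −0.75 and −0.70. The share of cells in S phase was not measured, and its part in the histone values was not tested.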

How the data were processed

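For every spot the authors deposited an intensity that Feature Extraction 10.7.1.1 had corrected for background but not scaled between arrays, and beside it a GeneSpring table of log2 values relative to each probe's median, used here as an alternative. The Methods name a human array design and the file headers a mouse design (mm9). The scanner files hold no gene names, so probes were named by transcript accession through RefSeq of GRCm38.p6 and its synonyms (26581 of 39429 probes, 67.4%). The members were picked by a rule on gene names and by detection on at least 1 array. That rule, the lists and the comparisons were chosen with earlier results of these data known.

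Control spots and spots marked as outliers were left out, spots of a probe were averaged, log2 was taken and the 75th percentile of all noncontrol spots (1647, 1448, 1669 and 1603) was subtracted. The probe with the highest mean stood for its gene. A comparison took the genes called well above background on either array. A signal not well above background was replaced by the higher of itself and the lowest detected signal of its array (14.7, 17.8, 20.3 and 19.3), which gives a bound. Where this bound passed the detected signal of the other array, no value was given. The number of arrays, 1 per condition, limits the precision, and replicates were not at hand.

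Genes were named by rule, as the brightest and most changed per class, those of the smaller clusters and those past 2-fold with all inhibitors, and others are said to be chosen later. Alternatives were 2 normexp fits (offset 50), 4 other scalings, the authors' table, mean over probes, no bounds, outlier spots kept, 2 filters, and 4-fold and 1.5-fold thresholds. For the 3 inhibitor pairs they were added after seeing the data. The scripts were tested on simulated data. Python 3.11.15, numpy 2.4.6, pandas 2.3.3, matplotlib 3.10.9, R 4.3.3 and limma 3.58.1 were used.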

Additional observations from a re-analysis of the deposited data

How the results depend on the processing

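The depth of these results is limited to 1 array per condition, and signals near background carry the largest software error. Of 34 differences past 2-fold among the named genes, H2bc22 and H2bc8, 14 stayed past 2-fold in the same direction under all 10 other processings, namely H1f4 and H1f5 (MG132, epoxomicin), H3c8 (all inhibitors), H2aw and H2bc4 (epoxomicin), H2bc4 between epoxomicin and MG132, and H1f4, H1f5, H2aw and H2bc4 between ONX0914 and epoxomicin. The normexp fits add an offset of 50 to every signal, which narrows differences of dim probes by construction, and 16 of the 34 stayed past 2-fold without outlier spots in the fit and 23 with all spots. Members at least 2-fold lower were then 3, 4 and 1 in the order MG132, epoxomicin, ONX0914, and 1 member was higher with epoxomicin than with MG132, where 0.052% of all genes were. In that order the H1 medians were −0.30, −0.15 and −0.25, and those of H2B −0.077, −0.12 and −0.052. With normexp fitted on all spots, the DMSO array came out brighter than the rest (median 386, against 153, 163 and 157), and the median of all genes shifted to −0.28, −0.30 and −0.17. The member medians were then −0.24 with MG132 and −0.35 with epoxomicin, those of H1 −1.11, −1.36 and −0.45, of H2A 0.15, −0.055 and 0.098, of H2B −0.50, −0.39 and −0.48, and of H4 −0.069 with ONX0914. Members lower were 13, 11 and 9, none was higher with MG132, 1 was higher with epoxomicin than with MG132, and H2bc22 reversed to −0.81 with epoxomicin. Of all genes, 3.42% were higher with MG132 and 0.052% were higher with epoxomicin than with MG132. With either fit 0 members were higher with ONX0914 than with MG132 and 2 were lower with ONX0914 than with epoxomicin. Of all genes, 0.162% were higher in the first comparison and 2.2% or 2.24% lower in the second. Without scaling the median of all genes with MG132 was −0.20, and a median shift put it at −0.12. The MG132 medians were −0.28 and −0.19 over the members, −0.84 and −0.75 for H1, −0.18 and −0.10 for H2A, −0.42 and −0.34 for H2B, −0.61 and −0.53 for H3 and −0.23 and −0.14 for H4. Without scaling, no member was higher with MG132 (0) and 5 were higher with epoxomicin than with MG132. That count was also 5 with the authors' table, without bounds and without a filter. In these settings, in that order, 1.26%, 1.42%, 1.43% and 2.03% of all genes were higher with epoxomicin than with MG132. Without scaling, 5.32% of all genes were higher with MG132 than with DMSO. Quantile normalization gave −0.11 for H2A with MG132. The authors' table gave −0.76 for H1 with MG132 and −0.46 with ONX0914, and the mean over probes −0.28 for the members with MG132. H1 with ONX0914 was −0.44 without bounds, without a filter and among genes detected on all arrays, where H1 and H2B with epoxomicin were −1.10 and −0.36. Without a filter H2B with epoxomicin was 0.40, 2 members were higher with MG132 and 1 was lower with ONX0914 than with MG132, where 7.24% and 4.63% of all genes were. The cause of these moves was not tested. At 4-fold, 0, 0 and 0 members were higher and 2, 1 and 0 lower, 0 were higher with epoxomicin than with MG132, 0 higher with ONX0914 than with MG132, and 0 higher and 2 lower with ONX0914 than with epoxomicin. At 1.5-fold, 4 were higher with MG132, 8 higher and 12 lower with epoxomicin, 5 lower with ONX0914, 7 higher and 2 lower with epoxomicin than with MG132, 6 higher and 4 lower with ONX0914 than with MG132, and 9 higher with ONX0914 than with epoxomicin. The shares of all genes past 4-fold and 1.5-fold were not computed, so these counts cannot be set against them. No paired analysis was possible because each condition has 1 array.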
